A study of Homo sapiens with 14 samples.

Results

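The mitosis genes are 42 genes whose products drive or mark cell division, chosen by name from the table of gene values (GENE_NAME equal to one of the 42 symbols). They are 42 of the 19410 rows of the table, and all 42 were among the 13540 rows past the filter on low values (a TPM, the length-adjusted share of transcripts on a fixed total, of at least 1 in at least 2 of 14 libraries). They cover the cyclins, CDK1 and CDC25 phosphatases (6 genes), the mitotic kinases (4), the chromosomal passenger complex (3), the spindle checkpoint (5), the anaphase genes (3), the kinetochore and centromere (5), the kinesin motors (8), the spindle and midzone proteins (5), chromosome structure (2) and the transcription factor FOXM1.

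Entry into mitosis is driven by CDK1 bound to B-type cyclins, which CDC25 phosphatases switch on and which the Polo-like and Aurora kinases assist. Kinetochores tie chromosomes to spindle microtubules, the spindle checkpoint holds the cell until every chromosome is attached, and the anaphase-promoting complex with CDC20 then releases separase to split the sister chromatids. The transcripts of these genes peak together in G2 and mitosis. The DREAM complex holds many of them down in resting cells through the cell cycle genes homology region (CHR) of their promoters, often beside CCAAT boxes bound by NF-Y, and the MuvB core with MYBL2 and FOXM1 turns them on late in the cycle. In a growing tumour line their summed level therefore follows the share of cells in G2 and mitosis as well as the output of each cell. In bulk RNA, fewer cells in mitosis and less of a transcript per cell cannot be told apart.

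The study asked what the corepressor subunit SAP30, its scaffold proteins SIN3A and SIN3B, and the histone methyltransferase MLL1 (KMT2A) do to gene expression in MDA-MB-231, a triple-negative breast cancer cell line. Parental cells were compared with 6 lines edited by CRISPR/Cas9, 2 of each genotype (SAP30-KO1 and -KO2, SIN3A+SIN3B-DKO1 and -DKO2, MLL1-KO1 and -KO2), and every line was sequenced in 2 libraries. All cells were untreated and grown in DMEM with fetal bovine serum, and polyadenylated RNA was sequenced. Each edited line was a mixture of several knockout clones checked by immunoblot after puromycin selection, so a line is not 1 clone and the control is the untransfected parental line. The labels do not say whether the libraries of a line came from separate cultures, so the p-values measure the spread between these libraries. The parental libraries serve as the control of all 6 lines, so the 6 comparisons share them.

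Reads counted to genes ranged from 18415036 to 23162682 per library, and the 42 genes had between 186 (HMMR) and 27339 (MKI67) reads in a library. No pair of replicate libraries was within sampling noise (chi-square per degree of freedom 1.47 to 8.0 over genes with at least 20 reads in the 2 libraries together). The highest value was that of SIN3A+SIN3B-DKO2. Of the targeted genes, SAP30 fell from 78.9 and 82.8 TPM in parental cells to 3.13 and 3.72 TPM in the SAP30-KO1 libraries and 4.96 and 2.75 TPM in those of SAP30-KO2. SIN3B fell from 75.1 and 77.4 TPM to 50.2 and 49.0 TPM in SIN3A+SIN3B-DKO1 and to 49.7 and 43.5 TPM in SIN3A+SIN3B-DKO2. MLL1, listed under the older symbol MLL, fell from 56.7 and 49.0 TPM to 17.4 and 15.8 TPM in MLL1-KO1 and to 25.7 and 27.7 TPM in MLL1-KO2. SIN3A mRNA was not lower in the libraries labelled SIN3A+SIN3B-DKO: it went from 43.1 and 45.4 TPM to 60.6 and 62.5 TPM in SIN3A+SIN3B-DKO1 and to 55.1 and 55.2 TPM in SIN3A+SIN3B-DKO2, so SIN3A mRNA does not check that label. The mesenchymal marker VIM stood between 5741 and 8805 TPM, ESR1 reached at most 0.191 TPM and PGR at most 0.139 TPM, the leukocyte marker CD3E reached at most 0.0802 TPM, and the endothelial marker CDH5 reached at most 0.0337 TPM. Among the markers set as low for this line, ERBB2 (21.9 to 42.8 TPM) and EPCAM (5.33 to 19.2 TPM) were detected. Another endothelial marker, PECAM1, was present at a low level (1.55 to 3.97 TPM). Of the luminal epithelial markers, KRT8 (105 to 419 TPM), KRT18 (363 to 777 TPM) and GATA3 (8.16 to 17.3 TPM) were detected.

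A feature that the choice of members did not use is shared by most of their promoters. RefSeq promoters of GRCh38.p14, each running from 250 bases before to 50 bases after the listed start, were matched by symbol for 36 of the 42 genes (not for AURKA, BUB3, TTK, BIRC5, TPX2 and FOXM1). The letters of the CHR, searched on both strands as TTTGAA and in the variant form TTCGAA, occurred in 28 of the 36 (77.8%) against 15.6% of the 10236 tested genes with a promoter entry. The NF-Y box, searched on both strands as CCAAT, occurred in 30 of the 36 (83.3%) against 43.6%. Both motifs occurred in 24 (66.7%) against 8.59%. A gene with several listed starts was counted if any of their windows held the letters. Both motifs could therefore lie in different windows of a gene, as in PLK4. At least 2 CHR matches were present in 8 of the 36, against 1.91% of all tested genes. The letters of CHR were not found in the windows of CCNB1, CCNA2, AURKB, NEK2, KIF20A, KIF2C, CENPE and PTTG1, which says only that these letters are not in this window. A match is a description of the sequence and not evidence of binding.

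The promoters of CDC20, TOP2A and ECT2 are shown because, of the mitosis genes with a CHR match, these were called in the most lines. HMMR and KIF2C, chosen after their values were seen, are shown as the gene with the largest fall in the MLL1-KO lines and as a called gene whose window holds neither motif. Capitals mark every CHR and NF-Y match on either strand, so that a CHR on the other strand reads TTCAAA and an NF-Y box reads ATTGG there. The sequences are in the direction of transcription, 5′ to 3′. The windows are chr1:43358731-43359030 (+) for CDC20, chr17:40417847-40418146 (−) for TOP2A, chr3:172750476-172750775 (+) for the first of 2 starts listed for ECT2, chr5:163460382-163460681 (+) for HMMR and chr1:44739587-44739886 (+) for KIF2C.
CDC20: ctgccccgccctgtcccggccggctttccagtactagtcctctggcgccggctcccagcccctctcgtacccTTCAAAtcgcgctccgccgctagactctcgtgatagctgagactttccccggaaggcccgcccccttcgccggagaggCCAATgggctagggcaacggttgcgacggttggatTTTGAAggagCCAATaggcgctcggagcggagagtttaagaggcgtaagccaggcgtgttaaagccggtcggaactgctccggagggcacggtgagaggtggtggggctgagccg
TOP2A: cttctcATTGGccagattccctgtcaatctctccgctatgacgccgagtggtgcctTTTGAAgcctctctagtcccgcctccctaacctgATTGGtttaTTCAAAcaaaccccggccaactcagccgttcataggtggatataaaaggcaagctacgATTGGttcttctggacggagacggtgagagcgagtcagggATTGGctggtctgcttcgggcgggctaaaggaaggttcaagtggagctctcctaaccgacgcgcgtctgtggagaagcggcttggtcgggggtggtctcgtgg
ECT2: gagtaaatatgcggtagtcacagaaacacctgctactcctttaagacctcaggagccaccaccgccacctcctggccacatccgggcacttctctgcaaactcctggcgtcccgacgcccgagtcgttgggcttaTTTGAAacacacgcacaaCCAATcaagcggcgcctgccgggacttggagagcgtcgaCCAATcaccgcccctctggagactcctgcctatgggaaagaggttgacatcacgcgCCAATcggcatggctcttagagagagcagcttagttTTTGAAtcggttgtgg
HMMR: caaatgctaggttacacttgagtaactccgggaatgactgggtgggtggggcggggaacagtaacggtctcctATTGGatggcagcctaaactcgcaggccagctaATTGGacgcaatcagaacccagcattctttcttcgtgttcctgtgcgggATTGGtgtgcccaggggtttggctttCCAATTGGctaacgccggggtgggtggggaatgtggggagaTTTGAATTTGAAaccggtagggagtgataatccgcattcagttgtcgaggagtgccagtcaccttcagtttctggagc
KIF2C: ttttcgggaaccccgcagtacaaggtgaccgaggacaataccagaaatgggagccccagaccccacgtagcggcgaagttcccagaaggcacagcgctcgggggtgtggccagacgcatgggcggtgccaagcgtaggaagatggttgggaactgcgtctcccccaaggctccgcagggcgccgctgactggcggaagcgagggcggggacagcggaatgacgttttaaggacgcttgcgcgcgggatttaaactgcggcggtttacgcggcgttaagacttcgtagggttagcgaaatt

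The CDC20 window holds 2 CHR matches, beginning 178 and 65 bases before the start, and 2 NF-Y boxes, 100 and 55 bases before it. The TOP2A window holds 2 CHR matches, 194 and 151 bases before the start, and 4 NF-Y boxes. The ECT2 window holds 1 CHR match 115 bases before the start and 1 that begins at base 34 after it, with 3 NF-Y boxes. In HMMR the 2 CHR matches lie in tandem, 28 and 22 bases before the start, and among its 5 NF-Y boxes 2 overlap. Over the 48 promoter windows of the 36 genes, CHR matches were densest between 30 and 10 bases before the start, at 22.9 per 100 promoters against 0.798 per 100 in the 14905 windows of all tested genes. NF-Y boxes were densest between 70 and 50 bases before the start, at 35.4 per 100 promoters against 7.93 in all windows.

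**Figure D1:**
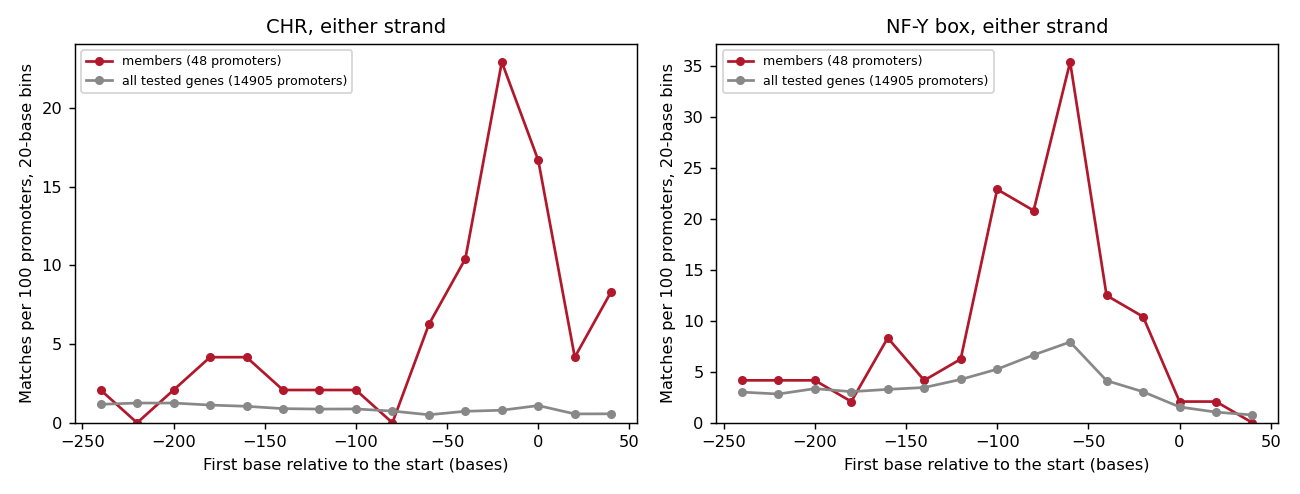
Matches per 100 promoters (y axis) by distance from the listed transcription start in bases (x axis, bins of 20 bases), for the CHR and for the NF-Y box, in the 48 promoter windows of the mitosis genes and in the 14905 windows of all tested genes. CHR matches of the mitosis genes peak just upstream of the start, at 22.9 per 100 promoters between 30 and 10 bases before it, and NF-Y boxes peak further upstream, between 70 and 50 bases before it.

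Each line was compared with parental cells in 1 limma fit to all tested genes on the log2(TPM + 0.5) scale. A gene was called at a Benjamini-Hochberg adjusted p under 0.05 over all 13540 genes and a change of at least 1.5-fold, and all adjusted p-values below are from this fit. Errors of log2 differences are standard errors. Levels are in TPM, which is per transcript length, and fold changes are given as log2 differences from the parental mean unless stated otherwise.

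Most of the mitosis genes stayed within 1.5-fold of parental cells in every line. In SAP30-KO1, 2 of 42 rose (CDC20 and KIF2C) and 0 fell, against 7.8% of all genes higher and 7.86% lower. In SAP30-KO2, 3 rose (CDC20, KIF2C and ESPL1) and 0 fell, against 7.44% and 8.12%. In SIN3A+SIN3B-DKO1, 1 rose (CDC20) and 1 fell (TOP2A), against 7.76% and 8.66%. In SIN3A+SIN3B-DKO2, 1 rose (CDC20) and 0 fell, against 6.0% and 7.56%. In MLL1-KO1, 1 rose (CDC20) and 3 fell (ECT2, HMMR and TOP2A), against 6.89% and 16.3%. In MLL1-KO2, 0 rose and the same 3 fell, against 10.2% and 14.9%. The share of the 42 that was called, in either direction, was between 2.38% (SIN3A+SIN3B-DKO2) and 9.52% (MLL1-KO1), below the share of all genes in each of the 6 lines.

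The sizes of the differences were also small beside those of the genome. This comparison, like that of the called shares, was not matched for expression level, and the 42 genes also differed less between replicates. The median absolute log2 difference between the libraries of a group was 0.029 to 0.090 for the 42 and 0.058 to 0.116 over all genes. The median absolute log2 difference of the 42 genes from parental cells was 0.17 and 0.15 in the SAP30-KO lines, 0.14 and 0.13 in SIN3A+SIN3B-DKO1 and SIN3A+SIN3B-DKO2, and 0.11 and 0.25 in MLL1-KO1 and MLL1-KO2. Over all tested genes it was 0.23, 0.23, 0.25, 0.22, 0.28 and 0.31 in the same order. The median signed difference of the 42 was 0.13, 0.01, -0.09, 0.07, -0.02 and -0.21, against medians of all genes of 0.03, 0.01, 0.00, 0.01, -0.09 and -0.04. The sign of the small medians depended on the scaling: that of SAP30-KO2 was -0.01 with median-ratio scaling, and that of MLL1-KO1 was 0.07 with median-ratio scaling and 0.02 with quantile normalization, which moved the median of all genes in MLL1-KO1 from -0.09 to 0.04.

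Together the 42 genes gave 7904 and 7819 TPM in the parental libraries, under 1% of all transcripts. The sum was 8756 and 8680 TPM in SAP30-KO1 against 8377 and 8411 in SAP30-KO2, 7577 and 7467 in SIN3A+SIN3B-DKO1, 8105 and 8678 in SIN3A+SIN3B-DKO2, and 7951 and 7837 in MLL1-KO1 against 6949 and 6852 in MLL1-KO2. The MLL1-KO2 libraries were the lowest of the 14 and those of SIN3A+SIN3B-DKO1 the next lowest, while the other SAP30-KO and SIN3A+SIN3B-DKO libraries stood above both parental ones. Without the 1.5-fold minimum, many small differences passed the test. At an adjusted p under 0.05, 4 of the 42 were lower and 18 higher in SAP30-KO1 (all genes, 22.9% and 28.1%), 8 and 16 in SAP30-KO2 (24.8% and 26.9%), 16 and 7 in SIN3A+SIN3B-DKO1 (28.2% and 27.8%), and 6 and 15 in SIN3A+SIN3B-DKO2 (23.9% and 25.7%). The MLL1-KO1 line had 9 lower and 8 higher (38.7% and 21.8%), and the MLL1-KO2 line 26 lower and 6 higher (36.2% and 28.0%). The balance of these small differences moved with the scaling in some lines: median-ratio scaling gave 7 lower and 15 higher in SAP30-KO1, and 6 lower and 18 higher in MLL1-KO1, where quantile normalization gave 6 and 10.

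**Figure D2:**
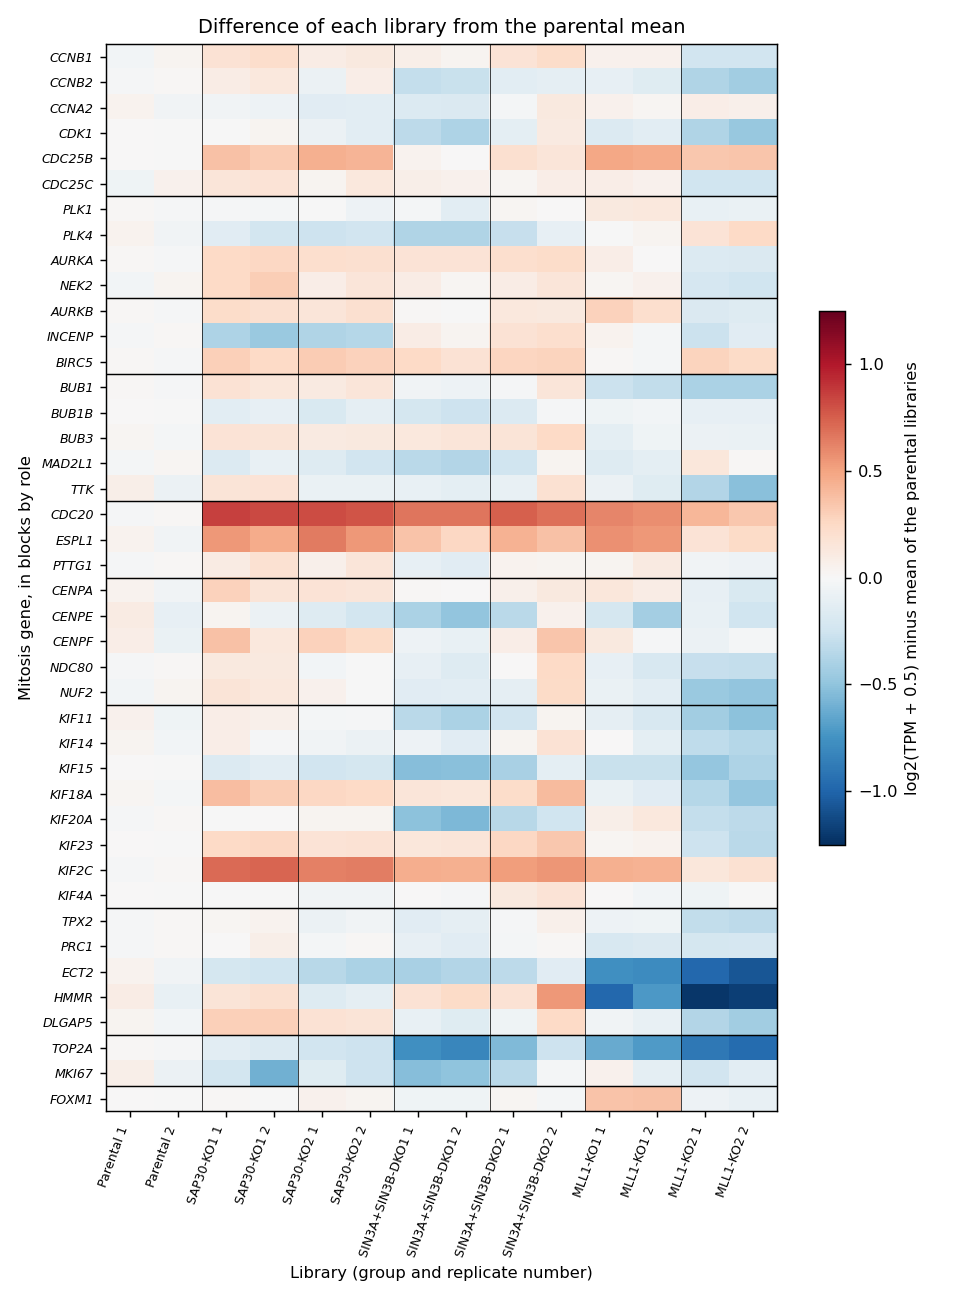
Log2 difference of each of the 42 mitosis genes (rows, in blocks by role) from the mean of the parental libraries in each of the 14 libraries (columns), shown as colour. CDC20, KIF2C and ESPL1 are higher in all 12 edited libraries, ECT2, TOP2A and KIF15 are lower in all 12, HMMR is low in the 4 MLL1-KO libraries, and the MLL1-KO2 columns are lower than the MLL1-KO1 columns over most rows.

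The anaphase genes held the largest rise among the 42 genes in these lines. CDC20, the activator of the anaphase-promoting complex, has its GRCh37 position on chromosome 1 from 43824652 to 43828874. Its level was 389.6 and 396 TPM in parental cells, 711 and 695 in SAP30-KO1 against 692 and 679 in SAP30-KO2, 624 and 624 in SIN3A+SIN3B-DKO1, 659.6 and 631 in SIN3A+SIN3B-DKO2, and 600.1 and 587 in MLL1-KO1 against 522 and 496 in MLL1-KO2. All 12 edited libraries were above both parental libraries, and the 4 SAP30-KO libraries were the highest. The log2 difference was 0.84 ± 0.03 in SAP30-KO1 (adjusted p = 1.62e-08), 0.80 ± 0.03 in SAP30-KO2, 0.67 ± 0.03 in SIN3A+SIN3B-DKO1, 0.72 ± 0.03 in SIN3A+SIN3B-DKO2 and 0.60 ± 0.03 in MLL1-KO1. In MLL1-KO2 it was 0.37 ± 0.03 (adjusted p = 1.79e-06), which did not reach 1.5-fold. The MLL1-KO1 value stood close to the limit and fell under it with quantile normalization (0.57) and without parental replicate 1 (0.58) or MLL1-KO1 replicate 1 (0.58).

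The genes that neighbour CDC20 on chromosome 1 were higher as well. The median difference of the 51 genes centred on it was 0.55 in both SAP30-KO lines, 0.38 and 0.36 in the SIN3A+SIN3B-DKO lines, and 0.35 in both MLL1-KO lines. In SAP30-KO1, 42 of the 50 nearest genes, from 1.87 Mb before to 1.98 Mb after CDC20, were above 0, with a median of 0.62. With the neighbours' running median subtracted from each library, CDC20 kept differences of 0.29, 0.26, 0.29, 0.35, 0.24 and 0.02 in the 6 lines and was called in 0 of them.

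ESPL1 encodes separase, the protease that cleaves cohesin at anaphase. It was at 23.2 and 21.9 TPM in parental cells, 32.9 and 31.2 in SAP30-KO1 against 35.5 and 33.0 in SAP30-KO2, 29.0 and 27.0 in SIN3A+SIN3B-DKO1, 30.5 and 29.1 in SIN3A+SIN3B-DKO2, and 33.8 and 33.0 in MLL1-KO1 against 25.4 and 26.6 in MLL1-KO2. All 12 edited libraries were above the parental ones. The rise in SAP30-KO2, 0.59 ± 0.06 (adjusted p = 1.13e-05), was called at 1.5-fold but stood close to that limit, and it fell under it with a pseudocount of 1 (0.58), with median-ratio scaling (0.57), with neighbours subtracted (0.57), and without parental replicate 2 (0.55) or SAP30-KO2 replicate 1 (0.54). The differences in SAP30-KO1 (0.50 ± 0.06) and MLL1-KO1 (0.56 ± 0.06, adjusted p = 1.17e-05) were of nearly the same size, and the neighbouring genes had medians between 0.01 and 0.03. PTTG1, which encodes securin, the inhibitor of separase, stayed between 531 and 666 TPM and was called in 0 lines. Reads of PTTG1 may be shared with its near-copies PTTG2 and PTTG3P, so its level is uncertain.

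Of the 8 kinesin motors, KIF2C was called in 2 lines and the other 7 in none of the 6. At an adjusted p under 0.05 with no fold minimum, 6 of the 8 were lower in MLL1-KO2 (all genes, 36.2%). KIF2C encodes MCAK, which takes microtubules apart at the kinetochore to correct wrong attachments, and it lies on chromosome 1 from 45205490 to 45233439, on the same arm as CDC20. It was at 180.3 and 183 TPM in parental cells, 298 and 302 in SAP30-KO1 against 282 and 284 in SAP30-KO2, 249.9 and 248 in SIN3A+SIN3B-DKO1, 261 and 266 in SIN3A+SIN3B-DKO2, and 248 and 246 in MLL1-KO1 against 201 and 208 in MLL1-KO2. It rose by 0.72 ± 0.03 in SAP30-KO1 (adjusted p = 1.53e-08) and 0.64 ± 0.03 in SAP30-KO2 (adjusted p = 2.5e-08). All 12 edited libraries were above the parental ones, with differences of 0.45, 0.53, 0.44 and 0.17 in the other 4 lines. Its 51 neighbours had medians of 0.73 and 0.69 in the SAP30-KO lines and of 0.40 to 0.44 in the other 4, and with them subtracted the KIF2C differences in the SAP30-KO lines were -0.01 and -0.05.

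KIF20A and KIF15 differed most among the other motors. KIF20A, the kinesin of the spindle midzone, was at 185 and 190.0 TPM in parental cells, 187 and 189 in SAP30-KO1 against 193 and 193 in SAP30-KO2, 131 and 127 in SIN3A+SIN3B-DKO1, 148 and 157 in SIN3A+SIN3B-DKO2, and 198 and 206 in MLL1-KO1 against 152 and 149 in MLL1-KO2. Its values in both SIN3A+SIN3B-DKO lines and in MLL1-KO2 were below all others, with differences of -0.54 ± 0.04 (adjusted p = 7.47e-07), -0.30 ± 0.04 and -0.32 ± 0.04, all under the 1.5-fold limit. KIF20A overlaps BRD8 and CDC23 on the opposite strand, and whether the counting used strand is not given in the sources used here. KIF15, which helps hold the bipolar spindle open, was at 62.5 and 61.8 TPM in parental cells, 55.1 and 56.6 in SAP30-KO1 against 52.6 and 53.1 in SAP30-KO2, 42.8 and 43.1 in SIN3A+SIN3B-DKO1, 46.9 and 57.1 in SIN3A+SIN3B-DKO2, and 51 and 51.2 in MLL1-KO1 against 44.2 and 47.6 in MLL1-KO2. All 12 edited libraries were below the parental ones, and the lowest difference was -0.53 ± 0.07 in SIN3A+SIN3B-DKO1 (adjusted p = 0.000123). KIF11, the main motor that separates the spindle poles, was at 162 and 151 TPM in parental cells, 166 and 164 in SAP30-KO1 against 154 and 155 in SAP30-KO2, 124 and 119 in SIN3A+SIN3B-DKO1, 133 and 160.5 in SIN3A+SIN3B-DKO2, and 145 and 136 in MLL1-KO1 against 116 and 109.8 in MLL1-KO2. It was lowest in MLL1-KO2, at -0.47 ± 0.07 (adjusted p = 0.000198), where its 51 neighbours had a median of -0.37.

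The other 4 kinesins are given by range. KIF18A, which shortens kinetochore microtubules, was at 63.5 and 61.4 TPM in parental cells, between 69.0 and 82.3 TPM in the SAP30-KO and SIN3A+SIN3B-DKO libraries, and between 44.7 and 58.9 TPM in the MLL1-KO libraries, with no overlap among these sets. KIF23, a subunit of the centralspindlin complex of the midzone, ranged from 103 to 165 TPM with its lowest values in MLL1-KO2. KIF14 ranged from 48.7 to 70.9 TPM and KIF4A from 108 to 125 TPM, and the reads of KIF4A may be shared with its near-copy KIF4B.

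The spindle and midzone proteins held the largest falls, all in the MLL1-KO lines. HMMR, a spindle protein that binds hyaluronan and acts in microtubule assembly with TPX2, lies on chromosome 5 from 162887209 to 162918947. It was at 22.3 and 19.7 TPM in parental cells, 23.5 and 24.2 in SAP30-KO1 against 18.6 and 19.3 in SAP30-KO2, 23.9 and 24.9 in SIN3A+SIN3B-DKO1, 23.8 and 30.7 in SIN3A+SIN3B-DKO2, and 10.3 and 12.6 in MLL1-KO1 against 8.74 and 8.99 in MLL1-KO2. The 4 MLL1-KO libraries stood below all 10 others. HMMR fell by 0.85 ± 0.12 on the log2 scale in MLL1-KO1 (adjusted p = 8.03e-05) and by 1.20 ± 0.12 in MLL1-KO2 (adjusted p = 4.95e-06). Its neighbours had medians of -0.14 and -0.17, and it remained called with them subtracted, at -0.71 and -1.03. HMMR is the least read of the 42 genes and overlaps the antisense gene HMMR-AS1, whose reads cannot be told apart from its own where strand was not used.

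ECT2, the exchange factor that activates RhoA for the contractile ring, lies on chromosome 3 from 172468472 to 172539264. It was at 228 and 213 TPM in parental cells, 189 and 186 in SAP30-KO1 against 173 and 168 in SAP30-KO2, 166 and 171 in SIN3A+SIN3B-DKO1, 176 and 200.4 in SIN3A+SIN3B-DKO2, and 129 and 128 in MLL1-KO1 against 111 and 105 in MLL1-KO2. All 12 edited libraries were below the parental ones, and the 4 MLL1-KO libraries were below the other 8. ECT2 fell by 0.78 ± 0.06 in MLL1-KO1 (adjusted p = 5.28e-07) and by 1.03 ± 0.06 in MLL1-KO2 (adjusted p = 4.9e-08), with differences of -0.23 to -0.39 in the other 4 lines. Its neighbours had medians of -0.20 and -0.19 in the MLL1-KO lines. With them subtracted it was -0.57 in MLL1-KO1, just under 1.5-fold, and -0.83 in MLL1-KO2. TPX2 activates AURKA on the spindle, PRC1 bundles midzone microtubules and DLGAP5 stabilizes spindle fibres. They ranged from 444 to 582, 206 to 251 and 197 to 329 TPM, and were called in 0 lines. All 5 genes of this group were lower in MLL1-KO2 at an adjusted p under 0.05 with no fold minimum (all genes, 36.2%).

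Among the genes of chromosome structure, TOP2A was called lower in 3 lines and MKI67 in 0. TOP2A, the topoisomerase that untangles sister chromatids, lies on chromosome 17 from 38544777 to 38574148. It was at 445 and 434 TPM in parental cells, 401 and 389 in SAP30-KO1 against 373 and 368 in SAP30-KO2, 258 and 249 in SIN3A+SIN3B-DKO1, 299.8 and 367 in SIN3A+SIN3B-DKO2, and 283 and 269 in MLL1-KO1 against 236 and 225 in MLL1-KO2. All 12 edited libraries were below the parental ones. TOP2A fell by 0.79 ± 0.07 in SIN3A+SIN3B-DKO1 (adjusted p = 5.7e-06), by 0.67 ± 0.07 in MLL1-KO1 (adjusted p = 1.3e-05) and by 0.93 ± 0.07 in MLL1-KO2 (adjusted p = 8.27e-07). Its neighbours had medians between -0.27 and -0.41 in all 6 lines. Of the 50 nearest genes, 39 were below 0 in SIN3A+SIN3B-DKO1, 39 in MLL1-KO1 and 36 in MLL1-KO2. In SAP30-KO1, where TOP2A was not called, 43 of these genes were below 0. With neighbours subtracted TOP2A was -0.40 in SIN3A+SIN3B-DKO1, -0.26 in MLL1-KO1 and -0.66 in MLL1-KO2, the only one of the 3 still called. The fall in MLL1-KO1 was also under the limit with median-ratio scaling (-0.57).

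MKI67, the Ki-67 proliferation marker that coats mitotic chromosomes, was at 271 and 246 TPM in parental cells, 221 and 170.0 in SAP30-KO1 against 232 and 215 in SAP30-KO2, 178 and 182 in SIN3A+SIN3B-DKO1, 203 and 254 in SIN3A+SIN3B-DKO2, and 268 and 236 in MLL1-KO1 against 218 and 235 in MLL1-KO2. Its replicates spread widely in several lines. The differences were -0.51 ± 0.12 in SIN3A+SIN3B-DKO1 (adjusted p = 0.00486) and -0.41 ± 0.12 in SAP30-KO1 (adjusted p = 0.0174), both under 1.5-fold, and between -0.21 and -0.03 in the other 4 lines. In MLL1-KO1 and SIN3A+SIN3B-DKO2 its values overlapped those of parental cells.

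**Figure D3:**
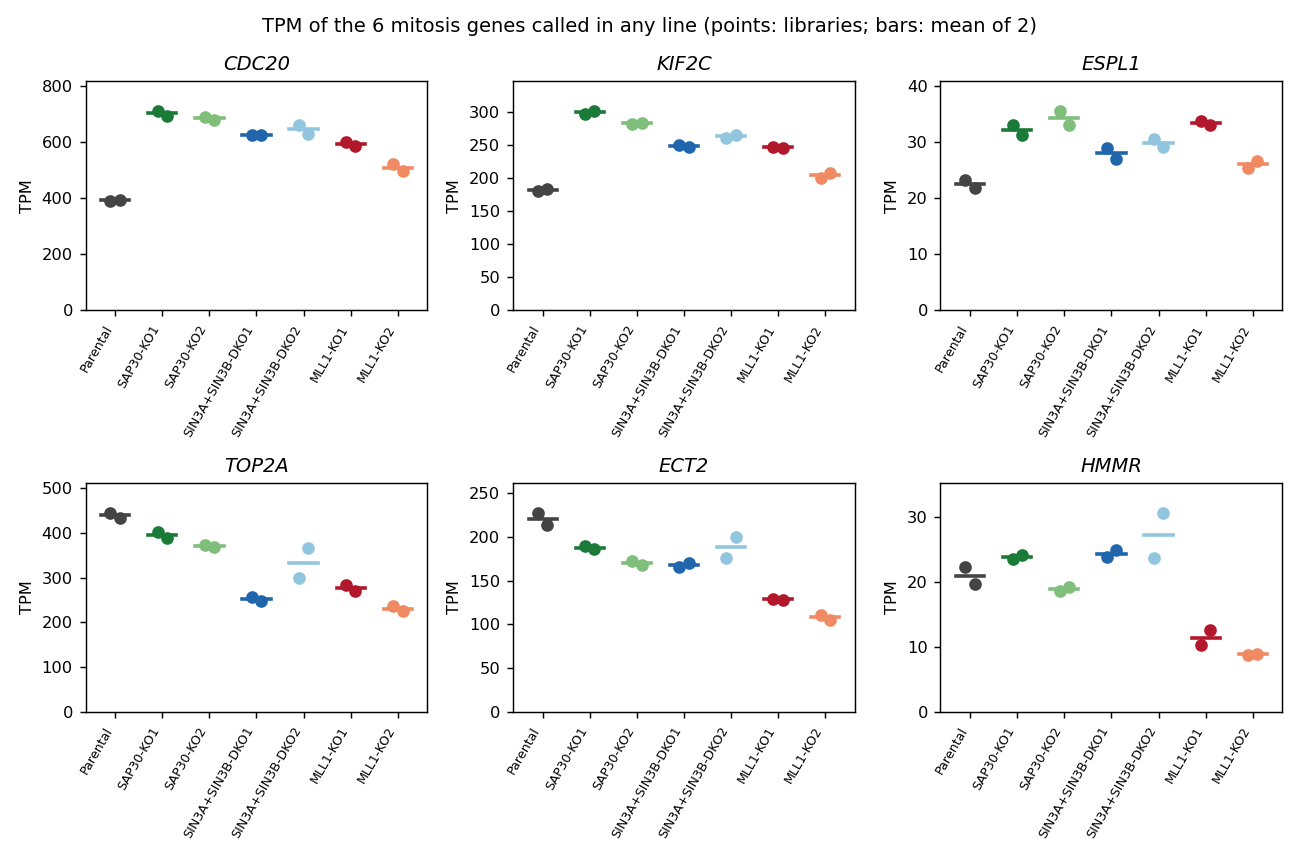
TPM (y axis, from 0) of CDC20, KIF2C, ESPL1, TOP2A, ECT2 and HMMR, the 6 mitosis genes called in at least 1 line, in each library of parental cells and the 6 edited lines; points are libraries and bars the mean of 2 libraries. CDC20 is at 496 TPM or more in every edited library and at 396 or less in parental cells, and HMMR lies between 8.74 and 12.6 TPM in the MLL1-KO libraries and at 18.6 TPM or more in all others.

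**Figure D4:**
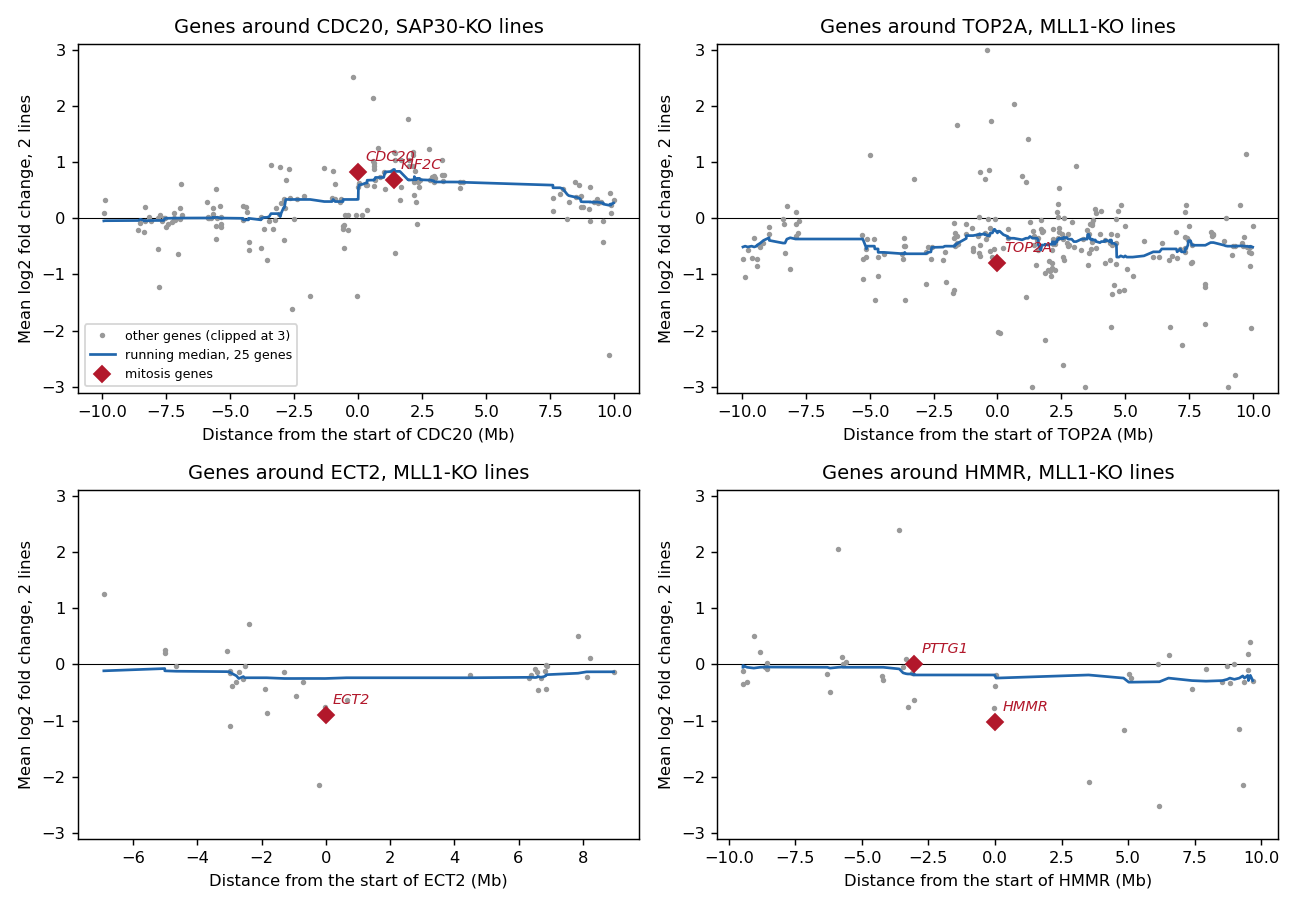
Log2 difference from parental cells of every tested gene (grey points, clipped at 3) within 10 Mb of CDC20, TOP2A, ECT2 and HMMR, by distance in Mb (x axis), with the running median of 25 genes as a line; the CDC20 panel shows the mean of the SAP30-KO lines and the other panels the mean of the MLL1-KO lines. Around CDC20 the line lies above 0 (50 nearest genes, median 0.62 in SAP30-KO1 and 0.59 in SAP30-KO2). Around TOP2A it lies below 0 (median -0.40 in MLL1-KO1 and -0.23 in MLL1-KO2). ECT2 and HMMR stand below a line that is itself slightly below 0.

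None of the cyclins, CDK1 and CDC25 phosphatases was called in any line. CDK1, the kinase that drives mitotic entry, was at 151 and 149 TPM in parental cells, 149.5 and 154 in SAP30-KO1 against 143 and 137 in SAP30-KO2, 119.9 and 115 in SIN3A+SIN3B-DKO1, 138 and 163 in SIN3A+SIN3B-DKO2, and 133 and 137 in MLL1-KO1 against 116 and 108 in MLL1-KO2. It was lower in SIN3A+SIN3B-DKO1 (-0.35 ± 0.06, adjusted p = 0.000851) and in MLL1-KO2 (-0.42 ± 0.06, adjusted p = 0.000174). Its partner CCNB1 was at 434 and 454 TPM in parental cells, 502 and 516 in SAP30-KO1 against 472 and 484 in SAP30-KO2, 466 and 456 in SIN3A+SIN3B-DKO1, 500.3 and 521 in SIN3A+SIN3B-DKO2, and 461 and 459.5 in MLL1-KO1 against 376 and 375 in MLL1-KO2. It was above both parental libraries in 5 lines and below them in MLL1-KO2 (-0.24 ± 0.03, adjusted p = 4.53e-05). CCNB2, another B-type cyclin, was at 192 and 194 TPM in parental cells, 206 and 212 in SAP30-KO1 against 183 and 204 in SAP30-KO2, 157 and 159 in SIN3A+SIN3B-DKO1, 176 and 179 in SIN3A+SIN3B-DKO2, and 179 and 173 in MLL1-KO1 against 148 and 142 in MLL1-KO2. Its lowest difference was also in MLL1-KO2, at -0.41 ± 0.05 (adjusted p = 1.66e-05).

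CDC25B, a phosphatase that starts CDK1 activation, was at 153 and 152 TPM in parental cells, 197 and 189.8 in SAP30-KO1 against 207 and 204 in SAP30-KO2, 157 and 152 in SIN3A+SIN3B-DKO1, 175 and 169 in SIN3A+SIN3B-DKO2, and 214 and 210.0 in MLL1-KO1 against 192 and 193 in MLL1-KO2. Of its group it was the only gene higher in the MLL1-KO lines at an adjusted p under 0.05 (0.48 ± 0.03 and 0.34 ± 0.03), and it was also higher in both SAP30-KO lines (0.34 ± 0.03 and 0.43 ± 0.03), each difference under 1.5-fold. CDC25C, which drives full CDK1 activation, ranged from 37.4 to 50.5 TPM with its lowest values in MLL1-KO2. CCNA2, the cyclin of S and G2 phase, ranged from 136 to 168 TPM.

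The 4 mitotic kinases differed in direction. PLK1, which acts in centrosome maturation and mitotic entry, was at 225 and 219 TPM in parental cells, 219.6 and 218 in SAP30-KO1 against 221 and 212 in SAP30-KO2, 219 and 202 in SIN3A+SIN3B-DKO1, 226 and 222 in SIN3A+SIN3B-DKO2, and 242 and 243 in MLL1-KO1 against 208 and 209.8 in MLL1-KO2. Only MLL1-KO1 differed from parental cells at an adjusted p under 0.05 (0.13 ± 0.04, adjusted p = 0.0124). AURKA, the centrosome kinase, was at 312 and 306 TPM in parental cells, 366 and 371 in SAP30-KO1 against 358 and 356 in SAP30-KO2, 349 and 348 in SIN3A+SIN3B-DKO1, 358 and 362 in SIN3A+SIN3B-DKO2, and 327 and 311 in MLL1-KO1 against 274 and 273 in MLL1-KO2. It was higher in the SAP30-KO and SIN3A+SIN3B-DKO lines by 0.17 to 0.25 and lower in MLL1-KO2 (-0.18 ± 0.03, adjusted p = 0.000213). The pseudogene AURKAPS1 may share its reads. PLK4, the kinase of centriole duplication, was at 44 and 41.1 TPM in parental cells, 38.6 and 36.2 in SAP30-KO1 against 35.4 and 36.0 in SAP30-KO2, 32.7 and 32.6 in SIN3A+SIN3B-DKO1, 34.8 and 39.7 in SIN3A+SIN3B-DKO2, and 42.3 and 43.5 in MLL1-KO1 against 48.1 and 50.8 in MLL1-KO2. MLL1-KO2 held its highest values (0.21 ± 0.06, adjusted p = 0.0121). NEK2, which splits the centrosomes, ranged from 55.1 to 81.3 TPM.

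In the chromosomal passenger complex, which corrects attachments and then guides cytokinesis, 3 genes gave 3 patterns. BIRC5, or survivin, was at 175 and 171 TPM in parental cells, 213 and 206 in SAP30-KO1 against 215 and 211 in SAP30-KO2, 205 and 195 in SIN3A+SIN3B-DKO1, 209 and 209 in SIN3A+SIN3B-DKO2, and 174 and 169.6 in MLL1-KO1 against 209 and 204 in MLL1-KO2. Every edited line but MLL1-KO1 was above parental cells, by 0.21 to 0.30. INCENP, the scaffold of the complex, was at 85.6 and 87.1 TPM in parental cells, 65.8 and 62.5 in SAP30-KO1 against 66.4 and 67.1 in SAP30-KO2, 92.3 and 88.5 in SIN3A+SIN3B-DKO1, 97.9 and 100.2 in SIN3A+SIN3B-DKO2, and 89.1 and 85.1 in MLL1-KO1 against 71.8 and 78.4 in MLL1-KO2. The 4 SAP30-KO libraries were the lowest of the 14 (-0.43 ± 0.05 and -0.37 ± 0.05), and the neighbours of INCENP on chromosome 11 had medians of -0.54 and -0.51 there. AURKB, the kinase of the complex, ranged from 177 TPM in MLL1-KO2 to 245 TPM in MLL1-KO1.

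None of the 5 spindle checkpoint genes was called in a line. BUB1, the checkpoint kinase at the kinetochore, was at 200.3 and 196 TPM in parental cells, 225 and 218 in SAP30-KO1 against 214 and 220.3 in SAP30-KO2, 192 and 190.1 in SIN3A+SIN3B-DKO1, 196 and 221 in SIN3A+SIN3B-DKO2, and 164 and 159.6 in MLL1-KO1 against 151 and 151 in MLL1-KO2. The 4 MLL1-KO libraries were the lowest, at -0.29 ± 0.05 (adjusted p = 0.000275) and -0.39 ± 0.05 (adjusted p = 2.57e-05). BUB1B, which encodes BUBR1 of the mitotic checkpoint complex, was at 103 and 101 TPM in parental cells, 93.0 and 95.2 in SAP30-KO1 against 89.4 and 94.2 in SAP30-KO2, 87.4 and 85.0 in SIN3A+SIN3B-DKO1, 90.4 and 101 in SIN3A+SIN3B-DKO2, and 97.9 and 99.6 in MLL1-KO1 against 94.9 and 94.8 in MLL1-KO2. Its differences were small, from -0.24 ± 0.05 in SIN3A+SIN3B-DKO1 to -0.05 ± 0.05 in MLL1-KO1. MAD2L1, which encodes the CDC20 inhibitor MAD2, was at 119.9 and 125 TPM in parental cells, 108 and 115 in SAP30-KO1 against 109.6 and 104 in SAP30-KO2, 97.1 and 94.8 in SIN3A+SIN3B-DKO1, 103 and 125 in SIN3A+SIN3B-DKO2, and 109.7 and 113 in MLL1-KO1 against 135 and 124 in MLL1-KO2. It was lowest in SIN3A+SIN3B-DKO1 (-0.35 ± 0.08, adjusted p = 0.00265). BUB3, the partner of BUB1 and BUBR1, ranged from 290.1 to 374 TPM, and TTK, the kinase MPS1 that starts checkpoint signalling, from 58.8 to 96.4 TPM with its lowest values in MLL1-KO2.

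Among the 5 kinetochore and centromere genes, CENPE, the kinesin that brings chromosomes to the metaphase plate, was at 70.4 and 61.4 TPM in parental cells, 67.4 and 62.6 in SAP30-KO1 against 58.6 and 56.2 in SAP30-KO2, 49.9 and 46.5 in SIN3A+SIN3B-DKO1, 51.9 and 68.4 in SIN3A+SIN3B-DKO2, and 56.4 and 48.8 in MLL1-KO1 against 61.4 and 55.3 in MLL1-KO2. Its replicates lay far apart in SIN3A+SIN3B-DKO2, and its lowest difference was -0.44 ± 0.12 in SIN3A+SIN3B-DKO1 (adjusted p = 0.009). CENPF, a large kinetochore protein, ranged from 156 to 215 TPM, CENPA, the centromeric histone, from 61.4 to 85.7 TPM, and NDC80, which grips the microtubule, from 146 to 212 TPM. NUF2, the partner of NDC80, ranged from 105 to 175 TPM and was lower in MLL1-KO2 (-0.48 ± 0.08, adjusted p = 0.000488) without reaching 1.5-fold.

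FOXM1, the forkhead factor that turns on late cell cycle genes, lies on chromosome 12 from 2966846 to 2986340. It was at 214 and 212 TPM in parental cells, 215 and 212 in SAP30-KO1 against 221 and 217 in SAP30-KO2, 205 and 205 in SIN3A+SIN3B-DKO1, 216 and 209 in SIN3A+SIN3B-DKO2, and 272 and 274 in MLL1-KO1 against 204 and 199.7 in MLL1-KO2. The MLL1-KO1 libraries were the highest (0.36 ± 0.03, adjusted p = 6.88e-07), and both MLL1-KO2 libraries were below both parental ones by a small amount (-0.08 ± 0.03, adjusted p = 0.031). In MLL1-KO1 the 51 neighbours of FOXM1 had a median of 0.42, and with neighbours subtracted the difference was -0.06. FOXM1 overlaps ITFG2 and RHNO1 on the opposite strand.

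The lines of 1 genotype were compared directly in the same fit. At 1.5-fold, 0 of the 42 genes were called between SAP30-KO1 and SAP30-KO2 (0.148% of all genes in either direction), between SIN3A+SIN3B-DKO1 and SIN3A+SIN3B-DKO2 (2.23%) or between MLL1-KO1 and MLL1-KO2 (10.4%), and limma-voom on the recovered reads also called 0 in each. At an unadjusted p under 0.05, 1 was lower and 10 higher in SAP30-KO1 than in SAP30-KO2, 31 lower and 0 higher in SIN3A+SIN3B-DKO1 than in SIN3A+SIN3B-DKO2, and 3 lower and 29 higher in MLL1-KO1 than in MLL1-KO2. The shares of all genes at that limit were 5.77% lower and 7.5% higher, 14.9% lower and 13.8% higher, and 30.5% lower and 19.1% higher. At an adjusted p under 0.05 with no fold minimum, the SAP30-KO lines differed in 0 of 42, with 0.288% of all genes lower and 0.236% higher.

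Between the MLL1-KO lines the mitosis genes differed in 1 main direction. At an adjusted p under 0.05, 28 of the 42 were higher in MLL1-KO1 than in MLL1-KO2 and 3 were lower, whereas over all genes 15.9% were higher and 26.2% lower. The median difference of the 42 was 0.26, against -0.05 over all genes. The largest were FOXM1 (0.44 ± 0.03, adjusted p = 5.93e-07), KIF20A (0.42 ± 0.04), AURKB (0.41 ± 0.03), NUF2 (0.37 ± 0.08) and ESPL1 (0.35 ± 0.06). The 3 that were lower were BIRC5 (-0.26 ± 0.03), MAD2L1 (-0.22 ± 0.08) and PLK4 (-0.20 ± 0.06). Both libraries of MLL1-KO1 were above both of MLL1-KO2 in 35 of the 42, and below them in 4 (share of all genes not given here). With neighbouring genes subtracted, 31 were higher and 1 lower, and FOXM1 went to -0.10. The count of higher genes stayed between 23 and 31 under every alternative run, the ones that leave out a library included.

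**Figure D5:**
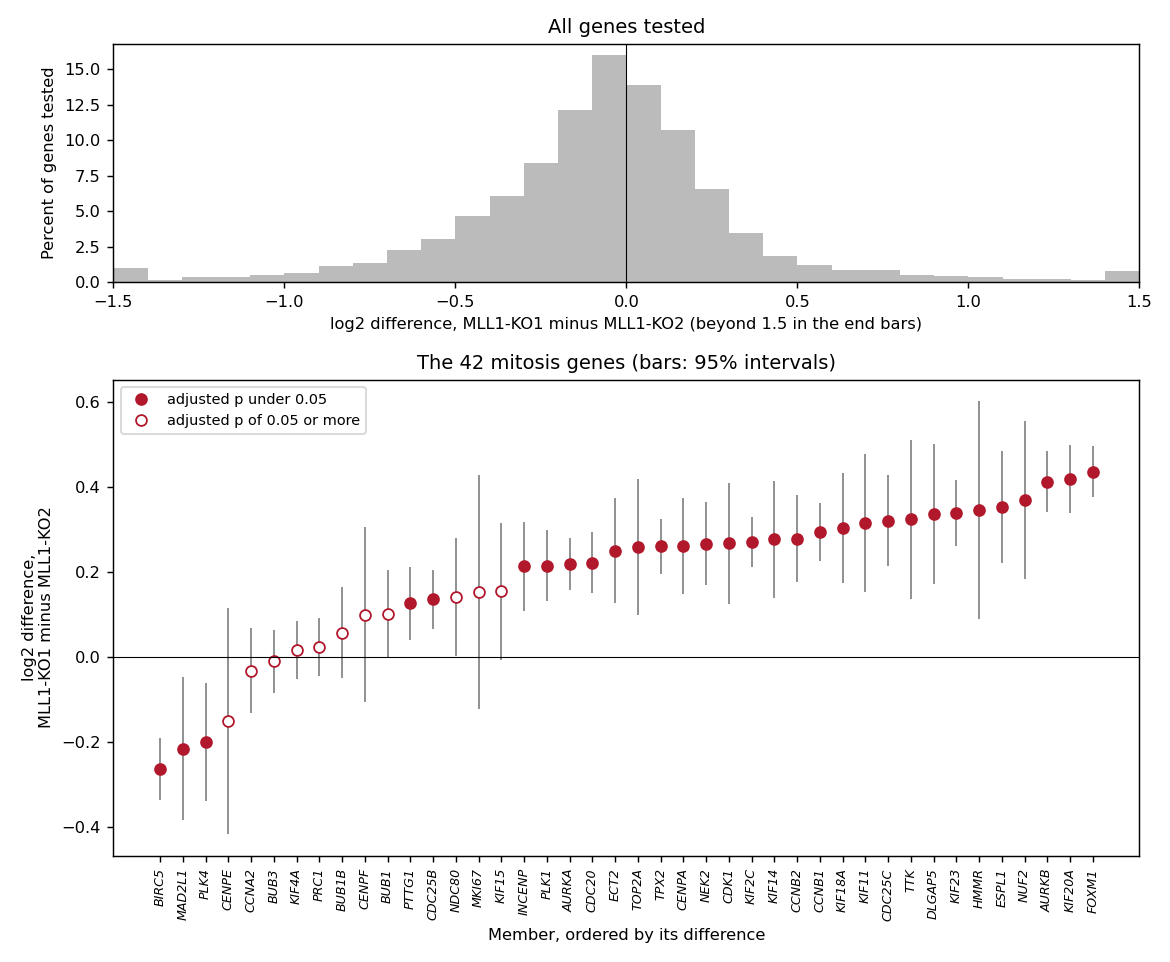
Log2 difference of MLL1-KO1 minus MLL1-KO2: the share of all tested genes by difference (histogram, percent of genes) and the 42 mitosis genes with their 95% confidence intervals (points and lines). The mitosis genes lie mostly between 0 and 0.44 with a median of 0.26, and BIRC5, MAD2L1 and PLK4 lie below 0 by more than their intervals.

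Between the SIN3A+SIN3B-DKO lines, 16 of the 42 genes were lower in SIN3A+SIN3B-DKO1 and 0 higher at an adjusted p under 0.05 with no fold minimum, against 5.8% lower and 6.71% higher over all genes. TOP2A (-0.39 ± 0.07, adjusted p = 0.00659) and CDK1 (-0.35 ± 0.06, adjusted p = 0.00635) had the largest of these. Both libraries of SIN3A+SIN3B-DKO1 were below both of SIN3A+SIN3B-DKO2 in 38 of the 42 (share of all genes not given here). The median difference of the 42 was -0.15, against -0.01 over all genes. The replicates of SIN3A+SIN3B-DKO2 differed along the same lines, since its replicate 2 was above its replicate 1 in 35 of the 42, by a median of 0.09 (all genes, 0.01). The count of 16 was 30 without SIN3A+SIN3B-DKO2 replicate 1 and 6 without its replicate 2, 5 and 2 without SIN3A+SIN3B-DKO1 replicate 1 and replicate 2, and 0 when only the 4 libraries compared were fitted.

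The genotypes were compared through the mean of their lines. Between the SAP30-KO and SIN3A+SIN3B-DKO lines, 0 of 42 were called at 1.5-fold in the limma fit and with voom (all genes, 3.25% lower and 4.22% higher), while 3 were lower and 19 higher at an unadjusted p under 0.05 (all genes, 24.9% and 29.9%). At an adjusted p under 0.05 with no fold minimum, 3 of 42 were lower and 18 higher (all genes, 22.2% and 26.4%). By the same limit 31 were lower and 5 higher in the MLL1-KO lines than in the SAP30-KO lines (43.9% and 23.9%), and 23 lower and 8 higher than in the SIN3A+SIN3B-DKO lines (42.7% and 25.1%). Between the SAP30-KO and SIN3A+SIN3B-DKO lines the largest differences were INCENP (-0.53 ± 0.03, adjusted p = 4.26e-07), KIF20A (0.44 ± 0.03) and TOP2A (0.40 ± 0.05). INCENP was lower in the SAP30-KO lines, while KIF20A and TOP2A were higher in them. The MLL1-KO lines were below the SAP30-KO lines in HMMR (-1.04 ± 0.08, adjusted p = 6.82e-07), TOP2A (-0.60 ± 0.05) and ECT2 (-0.60 ± 0.04), and 0 were higher (all genes, 13.5% lower and 6.34% higher). They were below the SIN3A+SIN3B-DKO lines in HMMR (-1.31 ± 0.08, adjusted p = 1.02e-07) and ECT2 (-0.59 ± 0.04), and again 0 were higher (all genes, 13.0% and 6.91%). TOP2A and ECT2 stood at the edge of the 1.5-fold limit, so that only HMMR remained against the SAP30-KO lines with median-ratio scaling, with voom or without MLL1-KO2 replicate 2. Against the SIN3A+SIN3B-DKO lines only HMMR remained with these and with quantile normalization or neighbours subtracted, and without replicate 2 of either SIN3A+SIN3B-DKO line. KIF18A was next in both comparisons, at -0.57 ± 0.04 and -0.50 ± 0.04.

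Genes of the same machinery outside the 42 were counted from fixed lists, in the order SAP30-KO1, SAP30-KO2, SIN3A+SIN3B-DKO1, SIN3A+SIN3B-DKO2, MLL1-KO1 and MLL1-KO2. In that order 7.86%, 8.12%, 8.66%, 7.56%, 16.3% and 14.9% of all genes fell at 1.5-fold. The shares that rose were 7.8%, 7.44%, 7.76%, 6.0%, 6.89% and 10.2%. Every list below is to be read beside these shares. Of 31 further kinetochore and centromere genes, 1, 2, 2, 1, 2 and 3 fell and 2, 1, 0, 2, 0 and 0 rose at 1.5-fold. SKA1, a kinetochore microtubule coupler, rose in 3 lines, from 31.0 and 28.2 TPM in parental cells to 47.7 and 46.2 in SAP30-KO1 against 47.0 and 45.2 in SAP30-KO2 and 43.5 and 48.5 in SIN3A+SIN3B-DKO2 (0.66, 0.63 and 0.63). ZW10, part of the checkpoint machinery at the kinetochore, fell in SAP30-KO1, SAP30-KO2 and MLL1-KO1 (-0.69, -0.72 and -0.81), where its neighbours had medians of -0.82, -0.85 and -0.97. CENPI, a centromere protein, rose in SAP30-KO1 and SIN3A+SIN3B-DKO2 (0.64 and 0.66), with neighbours at 0.76 and 0.60. Of 18 condensin and cohesin genes, 1, 1, 1, 0, 1 and 2 fell and 1, 0, 0, 0, 0 and 0 rose. NCAPD3, a condensin II subunit, fell in 4 lines, from 110.4 and 110.5 TPM to at most 72.1 TPM in the SAP30-KO and MLL1-KO libraries, with neighbours at -0.86, -0.85, -0.89 and -0.31. STAG2, a cohesin subunit, rose in SAP30-KO1 (0.62, neighbours 0.63), and PDS5B, a cohesin regulator, fell in SIN3A+SIN3B-DKO1 (-0.61, neighbours -0.19).

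Of 16 subunits and E2 enzymes of the anaphase-promoting complex, 0, 0, 0, 0, 2 and 3 fell and 1 rose, in MLL1-KO2. CDC27 and CDC16, both core subunits, fell in both MLL1-KO lines. CDC27 went from 121 and 115 TPM in parental cells to 74.8 and 73.4 in MLL1-KO1 against 69.0 and 65.4 in MLL1-KO2, and CDC16 from 118 and 119 TPM to 76.3 and 73.5 and to 77.8 and 78.3. Their neighbours were lower there too, with medians of -0.55 and -0.49 around CDC27 and -0.37 and -0.36 around CDC16. CDC23, another core subunit, fell in MLL1-KO2 (-0.73), where its neighbours had a median of -0.11. Of 32 further spindle and cytokinesis genes, 1, 0, 1, 0, 2 and 5 fell and 1, 0, 0, 0, 1 and 0 rose. SHCBP1, a midbody protein, and ANLN, the anillin scaffold of the contractile ring, fell in both MLL1-KO lines. ANLN was at 463 and 462 TPM in parental cells, 289 and 291 in MLL1-KO1 against 250.3 and 248 in MLL1-KO2, and between 492 and 562 TPM in the other 8 edited libraries. It fell by 0.67 and 0.89, and its neighbours had medians of -0.40 and -0.35. With neighbours subtracted ANLN was at -0.27 and -0.54, under 1.5-fold. STIL, a centriole protein, rose in SAP30-KO1 (0.62, neighbours 0.56).

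Of 13 tested mitotic entry regulators (14 listed), 1, 1, 0, 0, 1 and 3 fell and 1 rose in each line. PLK3, a stress-responsive Polo-like kinase, was that gene in all 6. It was at 8.49 and 6.78 TPM in parental cells, 16.0 and 16.0 in SAP30-KO1 against 15.3 and 17.2 in SAP30-KO2, 15.2 and 15.9 in SIN3A+SIN3B-DKO1, 16.7 and 11.9 in SIN3A+SIN3B-DKO2, and 20.4 and 18.6 in MLL1-KO1 against 22.3 and 22.6 in MLL1-KO2. Its differences were 0.85 to 1.5, and it lies among the same neighbours as KIF2C, whose medians around it were 0.74, 0.70, 0.45, 0.41, 0.40 and 0.41. PLK2, another stress-responsive member of the family, fell in both SAP30-KO lines (-0.63 and -0.79) and both MLL1-KO lines (-0.91 and -1.12), and BORA, which helps AURKA activate PLK1, fell in MLL1-KO2 (-0.87, neighbours -0.45).

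Of 19 DREAM and E2F regulators, 2, 3, 3, 2, 4 and 5 fell and 1, 0, 1, 0, 0 and 0 rose. RBL2, the p130 pocket protein of DREAM, was called lower in all 6 lines, by 0.59 to 1.11, with neighbours between -0.37 and -0.53. RB1 was called lower in 5 lines, with neighbours between -0.24 and -0.38 there. With neighbours subtracted neither was called in any line. MYBL2, which carries MuvB to late cell cycle promoters, differed between the SIN3A+SIN3B-DKO lines and between the MLL1-KO lines. Between SAP30-KO1 and SAP30-KO2 MYBL2 differed little (-0.12, adjusted p = 0.288). It was at 119 and 114 TPM in parental cells, 62.8 and 58.7 in SAP30-KO1 against 65.8 and 66.0 in SAP30-KO2, 63.1 and 61.5 in SIN3A+SIN3B-DKO1, 101 and 98.8 in SIN3A+SIN3B-DKO2, and 94.9 and 90.1 in MLL1-KO1 against 34.1 and 34.4 in MLL1-KO2. It fell in SAP30-KO1 (-0.93), SAP30-KO2 (-0.82), SIN3A+SIN3B-DKO1 (-0.90) and MLL1-KO2 (-1.75), and its neighbours stayed between -0.13 and 0.06.

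Of 43 G1/S and replication genes, 2, 2, 5, 2, 2 and 4 fell and 1, 1, 0, 1, 1 and 0 rose. GINS4 rose in 4 lines by 0.85 to 0.97, with neighbours between -0.04 and -0.18. GINS2 fell in 4, with neighbours between -0.42 and -0.49, and CHEK1, the checkpoint kinase of S and G2 phase, fell in 3, with neighbours between -0.75 and -0.91. With neighbours subtracted GINS4 was called in all 6 lines, and GINS2 and CHEK1 in 0. Of 10 tested G1 cyclins, CDKs and CDK inhibitors (12 listed), 2, 2, 2, 2, 1 and 3 fell and 0, 0, 1, 0, 2 and 3 rose. CDKN1A, the CDK inhibitor p21, was at 36.8 and 39.0 TPM in parental cells, 90.9 and 88.9 in MLL1-KO1 against 154 and 152 in MLL1-KO2, and rose by 1.23 and 2.0 there. It also rose in SIN3A+SIN3B-DKO1, to 60.2 and 62.2 TPM (0.68). CDKN1C, the inhibitor p57, went from 6.63 and 7.10 TPM to 20.3 and 20.1 in MLL1-KO1 against 35.5 and 35.5 in MLL1-KO2, and it fell in the 4 other lines, to between 2.74 and 4.61 TPM. CCND2 was at 1.60 and 1.84 TPM in parental cells, 1.30 and 1.24 in MLL1-KO1 and between 0.0593 and 0.325 TPM in the SAP30-KO and SIN3A+SIN3B-DKO libraries, and MLL1-KO2 had 0 TPM in 1 library and 0.021 in the other. Between MLL1-KO1 and MLL1-KO2, at an adjusted p under 0.05 with no fold minimum, 22 of the 32 further spindle and cytokinesis genes and 10 of the 13 mitotic entry regulators were higher in MLL1-KO1, with 2 and 0 lower. Of 43 G1/S and replication genes 17 were higher and 4 lower, of 31 kinetochore and centromere genes 8 and 6, and of 18 condensin and cohesin genes 7 and 3. Of 16 APC/C genes 5 were higher and 5 lower, of 19 DREAM and E2F regulators 2 and 3, and of 10 G1 cyclins, CDKs and CDK inhibitors 2 and 5. Over all genes 15.9% were higher and 26.2% lower.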

How the data were processed

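RNA-Seq of 14 libraries from MDA-MB-231 cells was analysed, 2 for each of 7 groups. Libraries were made with the KAPA mRNA Hyper Prep kit and sequenced on an Illumina NextSeq. The submitters' processing notes name FastQC 0.11.2, TopHat, featureCounts and hg19; the strand setting is not given in the sources used here. The deposited values are called RPKM by the authors, but each library sums to 1000000, so they were treated as TPM. Values of all 18519 genes above 0 (100.0%) were whole multiples of the value of 1 read (tolerance 0.02 reads), which gave reads per gene. Genes with at least 1 TPM in at least 2 libraries were kept (13540). limma 3.58.1 in R 4.3.3 was fitted with a mean-variance trend on log2(TPM + 0.5), which understates changes of low genes, with 7 group means (7 residual and 3.6 prior degrees of freedom), tested on simulated data. p-values were adjusted by Benjamini-Hochberg over all genes. Gene positions are those of GENCODE lifted to GRCh37; the median of 51 neighbouring genes stands for the region of a gene. The 42 genes and all gene lists were chosen with earlier results of these data known. CDK1, CCNB1, PLK1, AURKA, BUB1, MKI67, TOP2A and FOXM1, then the genes called in the most lines with ties by the size of the mean log2 difference over the 6 lines, up to 24 in all, are given library by library and the other 18 by range; of each other list, up to 3 genes called in the most lines are named by the same rule. Promoters were printed for up to 3 CHR-holding genes called in the most lines, and HMMR and KIF2C were added after their values were seen. The alternatives were 2 pseudocounts (0.1 and 1), no filter, quantile and median-ratio scaling, a 2-fold minimum or none, a fit to the compared libraries alone, a replicate block, voom on recovered reads, neighbouring genes subtracted and leaving out each library, with 1 alternative added after the data were seen (only genes that have a position).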

Additional observations from a re-analysis of the deposited data

Results flagged for a closer look

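4 results were marked because lines of 1 genotype differed from each other in a direct test. Between MLL1-KO1 and MLL1-KO2, 31 of the 42 mitosis genes passed an adjusted p under 0.05 at any fold. Of these, 28 were higher in MLL1-KO1 and 3 lower (all genes, 15.9% and 26.2%). FOXM1 had the largest of these differences, 0.44, and the genes around it had a median difference from parental cells of 0.42 in MLL1-KO1, while that of MLL1-KO2 was -0.12. Between SIN3A+SIN3B-DKO1 and SIN3A+SIN3B-DKO2, TOP2A had the largest difference, -0.39. By the same limit 16 of the 42 passed, all lower in SIN3A+SIN3B-DKO1 (all genes, 5.8% lower and 6.71% higher). That count was between 2 and 30 when 1 library was left out. What sets the lines of 1 genotype apart was not tested.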

How the results depend on the processing

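The 26 single-gene calls followed here include those of the targeted genes in the lines edited for them. Of these calls, only those of KIF2C changed direction under any alternative run. With neighbouring genes subtracted its differences were -0.0098 (SAP30-KO1) and -0.0500 (SAP30-KO2). With no fold minimum, the lower and higher counts were 4 and 18 (SAP30-KO1) against 8 and 16 (SAP30-KO2), 16 and 7 (SIN3A+SIN3B-DKO1) against 6 and 15 (SIN3A+SIN3B-DKO2), and 9 and 8 (MLL1-KO1) against 26 and 6 (MLL1-KO2). They were 16 lower between the SIN3A+SIN3B-DKO lines, 3 and 28 between the MLL1-KO lines, 3 and 18 for SAP30-KO minus SIN3A+SIN3B-DKO, 31 and 5 for MLL1-KO minus SAP30-KO, and 23 and 8 for MLL1-KO minus SIN3A+SIN3B-DKO. With a 2-fold minimum the counts that moved were 0, except 2 lower in MLL1-KO2 (ECT2 and HMMR, 3 at 1.5-fold), 1 lower (HMMR) for MLL1-KO minus SAP30-KO and 1 for MLL1-KO minus SIN3A+SIN3B-DKO. With neighbouring genes subtracted, 0 were called in the SAP30-KO and SIN3A+SIN3B-DKO lines, 1 lower and 0 higher in MLL1-KO1, 1 lower for MLL1-KO minus SIN3A+SIN3B-DKO, and 1 lower at any fold between the MLL1-KO lines. Median-ratio scaling and voom each gave 2 higher in MLL1-KO1 and 1 lower for MLL1-KO minus SAP30-KO and for MLL1-KO minus SIN3A+SIN3B-DKO. Quantile normalization gave 1 lower for MLL1-KO minus SIN3A+SIN3B-DKO and, like median-ratio scaling, 1 lower at any fold between the MLL1-KO lines. Fitting only the libraries compared gave 0 lower at any fold between the SIN3A+SIN3B-DKO lines; this fit has fewer residual degrees of freedom. Without 1 library, the ranges of counts were 0 to 1 lower in SAP30-KO1, 1 to 2 lower in SIN3A+SIN3B-DKO1, 0 to 1 higher in MLL1-KO1 (0 without MLL1-KO1 replicate 1), 2 to 30 lower at any fold between the SIN3A+SIN3B-DKO lines (5 and 2 without SIN3A+SIN3B-DKO1 replicates 1 and 2, 30 and 6 without SIN3A+SIN3B-DKO2 replicates 1 and 2), 1 to 3 lower at any fold between the MLL1-KO lines (1 without either MLL1-KO1 library), 1 to 4 lower for MLL1-KO minus SAP30-KO and 1 to 2 for MLL1-KO minus SIN3A+SIN3B-DKO. At any fold they were also 1 to 8 lower in SAP30-KO1 (lowest without Parental replicate 1, 2 without SAP30-KO1 replicate 2, highest without either SIN3A+SIN3B-DKO2 library). In SAP30-KO2 they were 2 to 9 lower (lowest without Parental replicate 1, 5 without Parental replicate 2, 3 and 4 without SAP30-KO2 replicates 1 and 2) and 9 to 17 higher (lowest without its replicate 2). They were 2 to 10 lower in SIN3A+SIN3B-DKO2 (lowest without Parental replicate 1, 3 without its replicate 1, highest without its replicate 2) and 6 to 14 lower in MLL1-KO1 (highest without either SIN3A+SIN3B-DKO2 library). At any fold, the 8 higher in MLL1-KO1 became 18 with median-ratio scaling or neighbouring genes subtracted and 14 with voom, and the 5 higher for MLL1-KO minus SAP30-KO became 10 with median-ratio scaling. With 2 libraries a group, a lone library left in a group was assumed to vary like the other groups. The replicate numbers are shared in name only: deviations of same-numbered libraries correlated between -0.07 and 0.08 over 21 pairs of groups, and with a replicate block 28 genes were higher and 3 lower between the MLL1-KO lines, as without it. The block changed the call of 0 of the single genes. The cause of these shifts was not tested.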
